A study of Mus musculus with 12 samples.

Results

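The genes described here encode the proteins of the mitochondrial ribosome in the left atrium (LA) of adult mice. They were chosen by name: every gene called *Mrpl* or *Mrps* followed by a number, with pseudogenes left out. Of the 54658 gene names in the count table, 78 met this rule, 49 named for the large subunit (*Mrpl*) and 29 named for the small subunit (*Mrps*). Of these, 77 (48 large, 29 small) exceeded 1 CPM (counts scaled to a common library total) in at least 6 of 12 libraries and were tested with the 13541 genes above that level. *Mrpl53* did not.

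RNA-sequencing was performed on LA from 6 iNICD mice (*αMHC-rtTA;tetO-NICD*) and 6 littermate controls that carried *αMHC-rtTA* alone, on a mixed background. The *αMHC* promoter confines the transactivator to cardiomyocytes, and with doxycycline it drives the Notch1 intracellular domain (NICD), the active form of the receptor. All mice, controls included, were 2 to 3 months old and were fed doxycycline for 3 weeks, with no washout. The controls were 4 females and 2 males and the iNICD mice 3 females and 3 males, each LA a library of its own.

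Mitochondria make the core subunits of the respiratory chain on ribosomes of their own. Their 2 ribosomal RNAs come from the mitochondrial genome, while all of their proteins are encoded in the nucleus, made in the cytosol and imported. Some of these proteins have bacterial counterparts and others were added during the evolution of mitochondria. Cardiac muscle is rich in mitochondria.

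Libraries held 21432632 to 27182038 counts, of which the 77 tested members and *Mrpl53* took 0.247% to 0.273%. *Notch1*, from which the expressed domain derives, averaged 118 ± 9.99 normalized CPM in controls and 3401 ± 441 in iNICD (± SD, 6 libraries each), so every library matched its label. *Xist* and *Ddx3y* levels went against the sex label in 0 libraries. Among marker genes, all 4 atrial markers fell, including *Nppa*, and the summed level of 8 cardiomyocyte markers was 62417 to 79633 normalized CPM in controls and 55881 to 65494 in iNICD. The 4 erythroid markers had log2 fold changes between -1.33 and -0.98 and did not pass the adjusted threshold. Control replicate 5, a male, had the lowest TMM normalization factor, 0.863 against 0.974 to 1.06 in the other 11 libraries, and 57 of the 77 members were higher in it than the mean of the other controls. In whole atria a smaller share of a cell type and less RNA per cell cannot be told apart. What these differences contribute to the members' values was not tested.

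The first question was whether Notch activation changed the members. A single member, *Mrps6*, a small-subunit protein with a bacterial counterpart, fell in iNICD LA, and no other member passed the threshold. Of 48 large-subunit genes, 0 rose and 0 fell (edgeR quasi-likelihood test, adjusted p threshold 0.05), with 3 higher and 3 lower at an unadjusted p under 0.05. DESeq2 called 1 of them, *Mrpl36*, higher. Of 29 small-subunit genes, 0 rose and 1 fell, with 1 higher and 4 lower at an unadjusted p under 0.05. Over all tested genes 2.78% rose, 1.34% fell and 17.4% had an unadjusted p under 0.05, and DESeq2 called 7.84% of the genes it adjusted in either direction.

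The median log2 fold change, iNICD against control, was -0.02 for the large-subunit genes and -0.08 for the small-subunit genes, against -0.01 over all tested genes. Omitting single libraries moved the large-subunit median between -0.05 and 0.01, above 0 without iNICD replicate 1 or 2. It moved the small-subunit median between -0.11 and -0.04, to -0.04 without control replicate 5 and to -0.05 without iNICD replicate 2 or 3. By sign alone, 28 of 48 large-subunit and 20 of 29 small-subunit genes were lower, as were 51.3% of all tested genes. For 71 of 77 members (92.2%) the 95% interval of the log2 fold change lay wholly within ±0.5, which was so for 60.0% of all tested genes, 90% of the nuclear oxidative phosphorylation genes and 92.3% of the mitoribosome assembly factors.

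**Figure D1:**
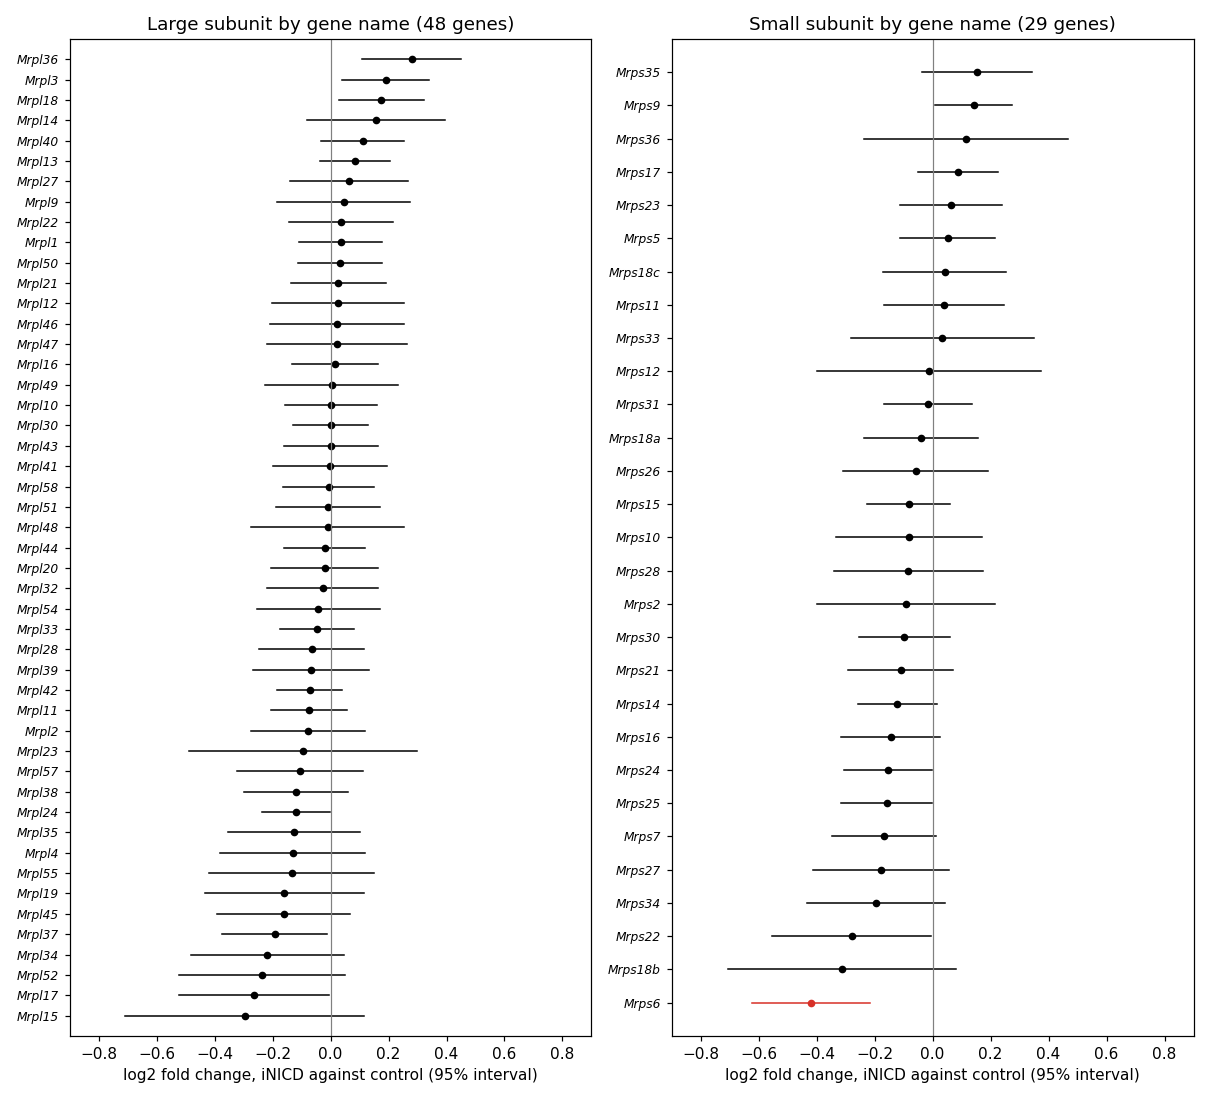
Log2 fold change, iNICD against control, of each tested member with its 95% interval (n = 6 libraries per group), large-subunit genes on the left and small-subunit genes on the right. *Mrps6*, in red at -0.42, is the single member past the adjusted threshold, and most other intervals span 0.

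*Mrps6* (ENSMUSG00000039680.10) lies on chromosome 16, 92058270 to 92112227, plus strand of GRCm38, with 5 merged exons of 1533 bases in all. Control libraries had 78.1, 60.1, 74.2, 79.8, 58.1 and 77.0 normalized CPM in replicates 1 to 6. The iNICD libraries had 48.2, 49.6, 56.6, 51.0, 60.8 and 53.4. Of the 6 iNICD libraries, 5 lay below every control, while replicate 5 lay above control replicates 2 and 5. The log2 fold change was -0.42 ± 0.09 (SE), with a 95% interval of -0.62 to -0.22 and an adjusted p of 0.0244 by edgeR. The exact permutation test over libraries, two-sided, gave p = 0.00649, where 0.00216 is the smallest it can give. The call was not stable to the loss of single libraries: the adjusted p exceeded 0.05 without control replicate 1 (0.0615), 3 (0.0523) or 4 (0.0624) and without iNICD replicate 1 (0.0624), 2 (0.0582) or 4 (0.0623), with log2 fold changes between -0.47 and -0.38 over all 12 omissions. It also exceeded 0.05 with library totals alone (0.074) and in the smaller fits of females alone (0.0564) and males alone (0.775).

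In the reference annotation 159 of the 1533 exon bases of *Mrps6* also belong to *Slc5a3*, a myo-inositol transporter gene on the same strand, and 305 to the gene model Gm49711. *Slc5a3* had 15.3 to 56.6 normalized CPM in controls and 15.9 to 34.0 in iNICD, a log2 fold change of -0.62 ± 0.26 (SE) with an adjusted p of 0.244 by edgeR. Reads from the shared bases cannot be assigned to either gene, and their part in the *Mrps6* difference was not tested.

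*Mrpl36* (ENSMUSG00000021607.9) encodes a small zinc-binding protein of the large subunit, on chromosome 13, 73328513 to 73332178, plus strand. It was the single member whose groups did not overlap, with 12.6, 14.7, 16.0, 16.4, 16.4 and 16.8 normalized CPM in control replicates 1 to 6 and 18.1, 17.4, 18.7, 18.8, 19.2 and 20.6 in iNICD. Over all tested genes 3.83% had groups that did not overlap. The log2 fold change was 0.28 ± 0.08 (SE), with a 95% interval of 0.11 to 0.45. By edgeR's adjusted p of 0.0701 it did not pass the threshold, and by DESeq2's of 0.0230 it did. *Ndufs6*, a complex I subunit gene that starts on the opposite strand and shares 30 exon bases with it, had a log2 fold change of 0.17 ± 0.07 (SE) and an adjusted p of 0.228 by edgeR.

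**Figure D2:**
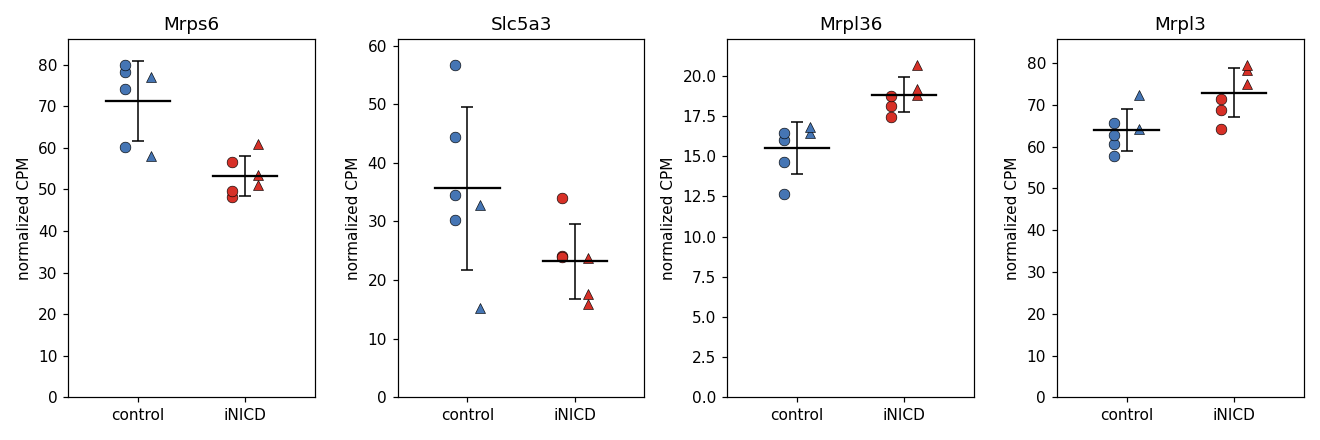
Normalized CPM in each library of *Mrps6*, its overlapping neighbour *Slc5a3*, *Mrpl36* and *Mrpl3*, with circles for females, triangles for males, a line for the mean and bars for the SD (n = 6 per group). The groups are separate for *Mrpl36* (12.6 to 16.8 against 17.4 to 20.6) and overlap for the other genes.

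The start regions of these 2 members are shown. *Mrps6* was the single member called by edgeR and *Mrpl36* the single one whose groups did not overlap. Over all tested genes 1.34% fell and 3.83% had groups that did not overlap. Each region runs from 250 bases before to 50 after the annotated RefSeq start (GRCm38.p6), 5′ to 3′ on the gene's strand. Capitals mark the motifs that were found among those searched on both strands. The *Mrpl36* region is chr13:73330759-73331058 and the *Mrps6* region chr16:92058086-92058385. The RefSeq start of *Mrpl36* lies inside the GENCODE gene given above, whose first base belongs to a longer transcript, so this region is not the one that adjoins *Ndufs6*.
Mrpl36: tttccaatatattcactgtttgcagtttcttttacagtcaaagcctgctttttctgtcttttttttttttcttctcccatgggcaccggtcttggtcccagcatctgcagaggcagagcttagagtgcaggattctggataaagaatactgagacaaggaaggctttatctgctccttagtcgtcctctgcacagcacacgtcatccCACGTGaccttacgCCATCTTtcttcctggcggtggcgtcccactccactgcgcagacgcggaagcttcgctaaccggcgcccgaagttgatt
Mrps6: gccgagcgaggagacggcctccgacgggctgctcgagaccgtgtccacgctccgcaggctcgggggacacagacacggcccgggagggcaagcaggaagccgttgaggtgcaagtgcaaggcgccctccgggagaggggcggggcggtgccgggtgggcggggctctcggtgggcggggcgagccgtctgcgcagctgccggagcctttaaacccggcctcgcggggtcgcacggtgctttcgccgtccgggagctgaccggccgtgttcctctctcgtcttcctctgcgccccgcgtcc

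The *Mrpl36* region held CACGTG 43 bases and the YY1 core AAGATGG, read on the other strand, 29 bases before the start. The *Mrps6* region held none of the 6 motifs and was 73.7% G and C, against 49.7% for *Mrpl36*. RefSeq regions matched 69 members, with 75 regions in all. The ETS core CCGGAAG was in 34.7% of these against 8.86% of all 32851 regions, the YY1 core in 17.3% against 6.34%, and the NRF1 core in 4.0% against 0.971%. The RBPJ core GTGGGAA, the letters bound by the DNA-binding partner of NICD, was in 8.0% against 6.38%. CACGTG was in 9.33% against 7.15% and TATAA in 13.3% against 24.9%. Such matches describe letters, not binding.

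Among the other large-subunit genes the highest log2 fold changes were those of *Mrpl3* (0.19), *Mrpl18* (0.18) and *Mrpl14* (0.16), and the lowest those of *Mrpl15* (-0.30), *Mrpl17* (-0.26), *Mrpl52* (-0.24) and *Mrpl34* (-0.22). *Mrpl3*, near the peptidyl transferase centre, had 57.8 to 72.4 normalized CPM in controls and 64.3 to 79.5 in iNICD, with an adjusted p of 0.17 by edgeR that became 0.0491 without control replicate 5. *Mrpl15* ranged from 61.3 to 114 in controls and from 40.4 to 77.3 in iNICD. In the small subunit the highest were *Mrps35* (0.15), *Mrps9* (0.14), *Mrps36* (0.12) and *Mrps17* (0.09), and after *Mrps6* the lowest were *Mrps18b* (-0.31), *Mrps22* (-0.28) and *Mrps34* (-0.19). Several of these values rested on 1 library. Without control replicate 5 the log2 fold change was -0.12 for *Mrps18b*, -0.17 for *Mrps22*, -0.11 for *Mrps34*, -0.16 for *Mrpl15* and -0.14 for *Mrpl17*. Without iNICD replicate 2 it was 0.08 for *Mrpl14* and -0.19 for *Mrpl15*. For *Mrps36*, at 1.54 to 2.77 normalized CPM, omissions gave 0.05 to 0.22, with control replicates 2, 3 and 5 and iNICD replicate 1 each moving it by over 1.5 times. The groups overlapped for each of the members named here, and with all 12 libraries and TMM factors none passed the adjusted threshold in edgeR. *Mrpl3* also passed with library totals alone, with an adjusted p of 0.0368 by edgeR.

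By place in the ribosome, the 6 tested genes of the central protuberance, the crest of the large subunit, had log2 fold changes from -0.24 to 0.18. The 5 near the peptidyl transferase centre, where peptide bonds form, ranged from -0.13 to 0.19, and *Mrpl22*, *Mrpl23* and *Mrpl24* at the exit tunnel from -0.12 to 0.04. *Mrpl45*, at the exit tunnel where the ribosome meets the inner membrane, was at -0.16. *Mrpl12*, whose protein forms the stalk that recruits translation factors, was at 0.03 and *Mrpl1*, of the stalk on the other side, at 0.03. *Mrpl58*, a release factor relative that frees stalled ribosomes, was at -0.01, and *Mrps12*, at the decoding centre, at -0.01. None of these passed the threshold. The 46 tested genes with a bacterial counterpart had a median of -0.04 and the 30 mitochondria-specific genes -0.04. *Mrps30* and *Mrps18a* carry small-subunit names but belong to the large subunit in the structure, and *Mrps36* belongs to the α-ketoglutarate dehydrogenase complex. Regrouped by structure, the medians were -0.02 for 50 large-subunit and -0.08 for 26 small-subunit genes.

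Summed over the tested genes of each subunit, large-subunit levels were 1714 to 1990 normalized CPM in controls and 1597 to 1880 in iNICD, and small-subunit levels 814 to 953 and 743 to 879. Both sums overlapped between the groups. The ratio of the 2 sums was 2.075 to 2.141 in controls and 2.104 to 2.184 in iNICD, again with overlap. The ribosomal RNAs of the mitochondrial ribosome, *mt-Rnr1* and *mt-Rnr2*, had adjusted p values of 0.776 and 0.485 by edgeR, in libraries depleted of ribosomal RNA.

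Levels of different members were compared as normalized CPM per kb of the authors' gene length. In controls they ran from 0.539 ± 0.131 for *Mrpl23* to 59.1 ± 7.52 for *Mrpl12* (mean ± SD, n = 6), with medians of 15.3 for the large and 8.60 for the small subunit. *Mrpl48* (3.71 ± 0.53) and *Mrpl32* (3.90 ± 0.53) were the next lowest of the large subunit. At the upper end *Mrpl28* followed at 48.8 ± 4.77 and *Mrpl16* at 43.8 ± 3.69. In the small subunit *Mrps23* was highest at 53.4 ± 4.72, followed by *Mrps6* at 46.5 ± 6.25 and *Mrps28* at 41.0 ± 4.49. *Mrps36* (1.60 ± 0.33), *Mrps10* (1.76 ± 0.23) and *Mrps33* (2.57 ± 0.30) were lowest. The control means of *Mrps36* and *Mrps10* differed by less than either SD, and those of *Mrpl12* and *Mrps23* by less than the SD of *Mrpl12* but more than that of *Mrps23*. The order was nearly the same in iNICD, with a Spearman rho of 0.993 across the 48 large-subunit and 0.993 across the 29 small-subunit genes, which share libraries and gene lengths.

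Some members share sequence with other genes. For *Mrpl22*, *Mrpl23*, *Mrpl27*, *Mrpl41*, *Mrps18b*, *Mrps25*, *Mrps33* and *Mrps36*, more than 10% of the 50-base windows of their transcripts also occur in transcripts elsewhere, processed pseudogenes among them, and their median level was 5.38 per kb (0.539 to 26.3) against 13.4 for the other 69. The part of shared sequence in these levels was not tested. Exons also overlap those of other genes, on the opposite strand for 28 of the 78 members and on the same strand for 8. On the opposite strand, *Mapk8ip3* covers 63.4% of the exon bases of *Mrps34*, *Nr2c2* 69.8% of *Mrps25* and Gm16279 30.5% of *Mrps18b*. How such reads were counted is not known, since the use of strand in counting is not given. *Mrpl53*, the member below the expression filter, had 0 to 2 counts per library, and 88.0% of its 790 exon bases are shared with the same-strand gene model Gm42688, which had 23 to 42 counts. Its level can therefore not be judged from this table. The lengths of 73 of the 78 members equalled their exon length in the reference annotation. With the reference length *Mrpl16* would be at 15.5 rather than 43.8 per kb.

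**Figure D3:**
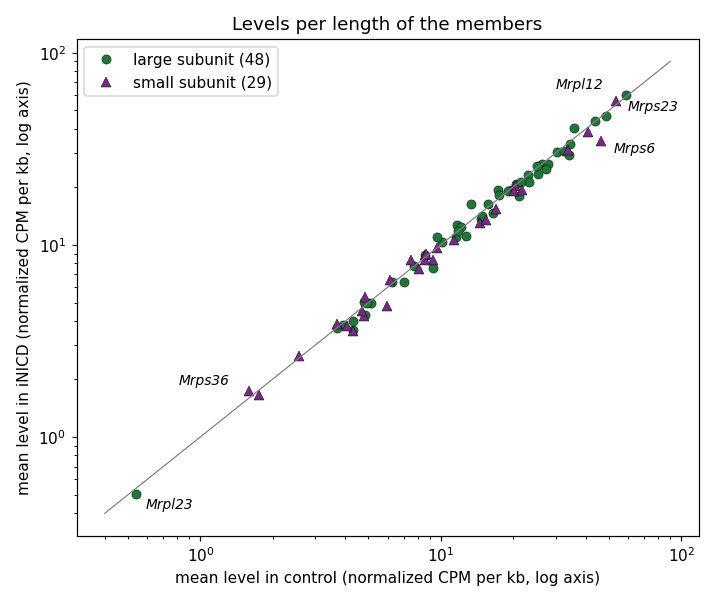
Mean level per kb of each tested member in control (x) and iNICD (y) LA, in normalized CPM per kb on log axes, with circles for large-subunit and triangles for small-subunit genes and a line of equality. Points stay close to the line from *Mrpl23* at 0.539 to *Mrpl12* at 59.1, and *Mrps6* lies below it.

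Genes that act with the ribosome were taken from lists. Of 26 tested assembly factors 1 fell, *Fastkd2*, an RNA-binding protein of large-subunit assembly, from 28.1 ± 2.91 to 22.9 ± 1.25 normalized CPM (adjusted p = 0.0381 by edgeR). Of 22 genes for aminoacyl-tRNA synthetases and for the glutamyl-tRNA amidotransferase 1 rose, *Hars2*, which charges the mitochondrial histidine tRNA, from 28.7 ± 2.81 to 37.0 ± 2.86 (adjusted p = 0.0182 by edgeR). None of 15 translation factors passed the threshold in edgeR, with 2 at an unadjusted p under 0.05. Of 10 genes of mitochondrial transcription and DNA maintenance 2 rose and 1 fell. *Tfam*, which packages the mitochondrial genome and helps to start its transcription, rose by 0.36 on the log2 scale. *Tefm*, an elongation factor, rose by 0.39, while *Polg*, the DNA polymerase, fell by 0.28. Of 12 regulators of mitochondrial biogenesis 1 rose, the coactivator *Ppargc1b*, by 0.88. The groups did not overlap for any of these genes except *Polg*, but the same values gave the calls, so this adds no support. Over all tested genes 2.78% rose, 1.34% fell and 3.83% had groups that did not overlap. In these lists, omitting single libraries gave 4 to 8 called genes.

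The 5 tested mitoribosomal proteins with other names had a median log2 fold change of -0.04, with none past the threshold in edgeR and 2 lower at an unadjusted p under 0.05, *Dap3* and *Chchd1*. The 73 tested cytosolic ribosomal protein genes had a median of -0.13, with 62 lower by sign. Of these 1 rose and 0 fell by edgeR's adjusted p, with 1 higher and 17 lower at an unadjusted p under 0.05. The 80 nuclear genes of oxidative phosphorylation had a median of 0.07, with 54 higher by sign. Of these 1 rose and 1 fell, with 10 higher and 2 lower at an unadjusted p under 0.05. Differences between these medians and those of the members were not tested. For all tested genes the shares were 2.78% higher and 1.34% lower by adjusted p. At an unadjusted p under 0.05 the share was 17.4% in either direction. Of the members, 33 have a gene starting within 1000 bases on the opposite strand. The 26 such partners that were tested and were not members had a median of 0.01 and 0 passed the threshold in either direction by edgeR.

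Members varied together within groups. After each group's mean was removed, the median Pearson r between a member and the mean of the others was 0.649 over 12 libraries, and 70 of 77 were above 0, a description of libraries that share depth and normalization. The non-member genes most like the members' mean were *Uqcrq* (r = 0.979), a complex III subunit, *Slc25a3* (0.973), the mitochondrial phosphate carrier, and *Dnajc15* (0.968), a cochaperone of mitochondrial import. The most opposite were 5530601H04Rik (-0.966), *Kdm6a* (-0.941), an X-linked histone demethylase that escapes X inactivation, and *Chek1* (-0.940), a DNA damage kinase.

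*Kdm6a* was higher in every female than in every male library, and the comparison of the sexes was added for this reason, after these values had been seen. Because the members' own pattern across these libraries prompted it, its counts and p values describe that pattern and are no independent test of it. With group as a covariate, 71 of 77 members were higher in male libraries, against 51.3% of all tested genes, with a median log2 difference, male against female, of 0.14 against 0.01 over all tested genes. None passed the adjusted threshold in edgeR, where 0.288% of all tested genes did, and the lowest adjusted p among members was 0.109. At an unadjusted p under 0.05, 29 members were higher and 0 lower in males, against 7.36% of all tested genes higher. Males lay above females in both groups for 11 of 77 members, against 1.8% of all tested genes. *Mrps28*, the member with the lowest p, had 26.0 to 32.2 normalized CPM in control females, 33.7 and 36.8 in control males, 24.3 to 28.1 in iNICD females and 33.9 to 36.7 in iNICD males. *Mrps6* did not share the pattern, with a log2 difference of 0.00 ± 0.10 (SE).

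In all, 8 fits of this comparison were run, and 0 members passed the adjusted threshold in each of them. With other sets of libraries or other scalings that correct for composition, 67 to 74 members were higher in males. With library totals alone, which shift all genes together, 57 were higher against 27.2% of all tested genes, and the median was 0.04 against -0.09 over all tested genes. In that fit 7 members were higher at an unadjusted p under 0.05, against 1.81% of all tested genes, and 1 was lower. In controls alone, with 2 males, 2 members were higher at an unadjusted p under 0.05, against 2.09% of all tested genes. TMM factors, which divide the CPM of every gene in a library, were lower in males than in females within each group. In controls they were 0.863 and 1.005 in males against 1.0095 to 1.027 in females. In iNICD they were 0.974 to 1.001 in males against 1.018 to 1.060 in females. The share of raw counts taken by the members overlapped between the sexes in controls, at 0.256% to 0.273% in females and 0.254% and 0.272% in males. It did not overlap in iNICD, at 0.247% to 0.258% in females and 0.265% to 0.269% in males. Without control replicate 5, which had the lowest raw share of the controls and the lowest normalization factor, 74 members were higher in males and the median was 0.13. Other gene sets had the same sign, untested against the members: 67 of 73 cytosolic ribosomal protein genes and 75 of 80 oxidative phosphorylation genes were also higher in males. The cardiomyocyte marker sum was higher in iNICD males (61520 to 65494) than in iNICD females (55881 to 58051) and overlapped in controls, and its part in the members' difference was not tested. All females carry lower replicate numbers than the males in iNICD and, by the numbers of the sample titles used here, in controls. Sex and any handling in that order cannot be told apart. The numbers of the sample descriptions exchange a control female and a control male.

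**Figure D4:**
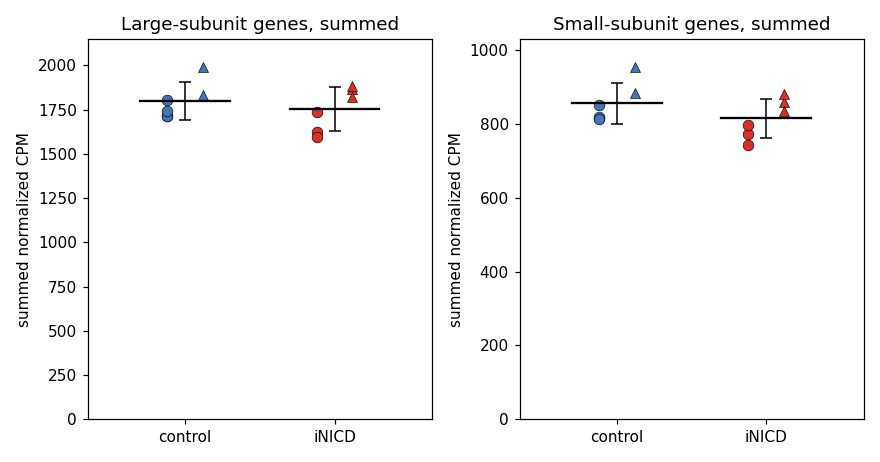
Summed normalized CPM of the 48 large-subunit and 29 small-subunit genes in each library, with circles for females, triangles for males, a line for the mean and bars for the SD (n = 6 per group). Control and iNICD overlap in both panels. Males lie above females within each group, where the TMM factors that divide these values are also lower in males.

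**Figure D5:**
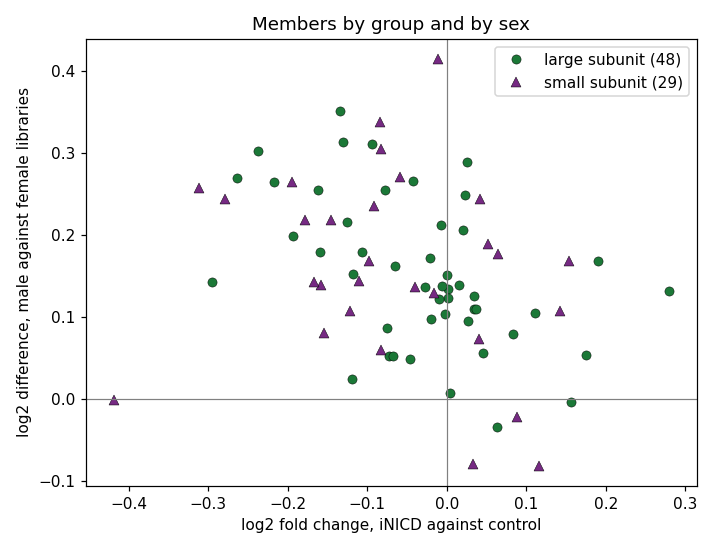
Log2 fold change of each tested member, iNICD against control (x), and its log2 difference, male against female libraries with group as covariate (y). Of 77 members, 71 lie above 0 on the y axis, none past the adjusted threshold, while *Mrps6* stands apart at -0.42 on the x axis and at 0.00 on the y axis.

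Sex was not balanced between the groups. With sex as a covariate the median log2 fold change, iNICD against control, was -0.04 for the large-subunit and -0.12 for the small-subunit genes, and *Mrps6* remained the single member past the threshold, with an adjusted p of 0.0338 by edgeR. The interaction of sex and group passed the adjusted threshold in edgeR for 0 of all tested genes, the members included. As it called no gene at all, this test does not set the members apart. At an unadjusted p under 0.05 there was 1 member, against 3.7% of all tested genes.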

How the data were processed

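LA RNA was depleted of ribosomal RNA and sequenced as stranded 50-base single-end reads. The authors deposited raw counts per gene name for 12 libraries, with no normalization, and a gene length in bases, a unit of its own. The submitters' processing notes name STAR 2.4.2a, featureCounts and mm10. The paper describes TopHat2 with HTSeq and, to compare the right and left atria, another version of STAR with Subread. The route behind the table, and whether counting used strand, are not given in the sources used here. Groups, replicate numbers and sex came from the sample labels, which name no batch.

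Genes above 1 CPM in at least 6 libraries were compared with edgeR 4.0.16 (R 4.3.3, TMM factors, quasi-likelihood test, two-sided, Benjamini-Hochberg over all tested genes, threshold 0.05). Standard errors came from the F statistic. DESeq2 1.42.0, other scalings, filters, covariates, replicate blocks and omissions of libraries were alternatives. Positions are from GENCODE M21 (GRCm38) and start regions from RefSeq. The test was checked on simulated data.

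The members and gene lists were chosen with earlier results of these data known. Genes were named by rule: members past the threshold, the 4 highest and 4 lowest changes and the 3 highest and 3 lowest levels per length of each subunit, members with groups that do not overlap, with a known role or next to the filter, list genes past the threshold, and the 3 genes most like the members. Genes most opposite to the members, *Dap3*, *Chchd1*, *Slc5a3*, *Ndufs6* and *Mrps28* were named after their values were seen, and the comparison of the sexes was added then.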

Additional observations from a re-analysis of the deposited data

Results flagged for a closer look

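A library far from the other controls was found for 2 of the members examined, both in control replicate 5. *Mrpl17* had 46.2 normalized CPM there and 25.3 to 32.6 in the other 5 controls. *Mrps22* had 23.3 there and 14.2 to 17.2 in the others. Of 38 groups of 6 libraries examined in this way, 2 were flagged, and chance flags about 1 in 20. Not every member was examined, so this count does not describe all members. *Mrpl47* and *Mrpl37*, which were left out, also stood apart in control replicate 5. *Mrpl47* had 29.8 normalized CPM there and 19.3 to 21.4 in the other controls. *Mrpl37* had 68.0 there and 52.6 to 55.6 in the others.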

How the results depend on the processing

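The edgeR exact test, other size factors and filters, the removal of mitochondrial genome genes, sex as a covariate and the regrouping by structure kept *Mrps6* as the single called member. DESeq2 added *Mrpl36*, which made 1 large-subunit gene higher. With library totals alone, chosen after seeing the data, 1 large-subunit gene was higher, *Mrpl3*, and 0 small-subunit genes were lower, with an adjusted p of 0.074 for *Mrps6*. In female and in male libraries alone, 0 small-subunit genes were lower (adjusted p of 0.0564 and 0.775 for *Mrps6* by edgeR, with log2 fold changes of -0.50 and -0.31), and 2 and 0 genes of the mitochondrial lists passed. *Mrps17* changed sign in males alone, to -0.040. With the replicate block of the title numbers, 0 small-subunit genes were lower (adjusted p of 0.0761 for *Mrps6* by edgeR), and with that of the description numbers, which exchange 2 controls, 1 was. Same-numbered libraries correlated above 0.1 in 4 of 6 pairs under either numbering, with means of 0.121 and 0.138, which does not establish that the numbers pair the samples. Leaving out single libraries gave 0 to 1 large-subunit genes higher, 0 to 1 small-subunit genes lower, and 4 to 8 called list genes. Members higher in males at an unadjusted p under 0.05 numbered 29 of 77 with both groups (7.36% of all tested genes), 2 in controls alone (2.09%) and 7 with library totals alone (1.81%). The cause of these changes was not tested. The median level per kb was 12.2 with either length. The median log2 fold changes of iNICD against control moved by less than the spread between replicates in every alternative run. With library totals alone the median difference between the sexes moved from 0.14 to 0.04, and that of all tested genes from 0.01 to -0.09.

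With 6 libraries per group, changes smaller than the intervals above could not be detected, and differences between whole atria cannot separate cell number from expression per cell.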
